A study of Homo sapiens with 30 samples.

Results

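Immediate-early response genes, 35 in number, were followed in poly(A) RNA-seq of the leukaemia line K562 and the colorectal carcinoma line HCT116. They were taken from 60664 genes in the count files by Ensembl identifier, and all 35 were found in each of 30 libraries. The libraries fell into 10 groups of 3 separate cultures. Wild-type K562 and wild-type HCT116 cells received 10 µM DNMT1i, an inhibitor of the maintenance DNA methyltransferase DNMT1, or 0.1% DMSO for 3 days. K562 cells with dTAG knocked into the nuclear speckle proteins SON and SRRM2 (the speckle line) received 500 nM dTAG-13, which sends the tagged proteins for degradation, or 0.1% DMSO for 6 hours. HCT116 cells carrying a HaloTag knock-in at CTCF (HT-CTCF) were given DNMT1i or DMSO over 1 day, each with or without HaloPROTAC3, which degrades HaloTag proteins. All 4 of these groups carry the tag. Per the study's methods, HaloPROTAC3 or its vehicle was started some hours before DNMT1i or DMSO and was continued with it. Degradation acts on protein, which these libraries do not measure, so RNA levels of the tagged genes do not check it. The study reported loss of CTCF by western blot, and of SON and SRRM2 by western blot and immunofluorescence.

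Immediate-early genes are transcribed within minutes of a growth factor, stress or calcium signal, without new protein synthesis. Signals pass through the RAS, RAF, MEK and ERK kinases to factors already bound at the promoters, among them SRF with its ELK partners at CArG boxes and CREB at cAMP response elements. Many of the products are transcription factors (FOS, JUN, EGR, KLF and NR4A families), and others close the loop: DUSP phosphatases remove phosphate from MAP kinases, and ZFP36 proteins bind AU-rich elements and speed mRNA decay, including that of immediate-early transcripts. The transcripts are short-lived, so their level follows recent signalling.

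The members are short genes. Their median span was 6.94 kb, against 26.1 kb for the 17910 genes tested in any comparison, while the median exon length was 3.82 kb against 4.39 kb. RefSeq promoter windows (GRCh38.p14, 250 bases before to 50 after the start) were found for 23 members, in 29 windows. No window was given for CCN1, NR4A2, KLF10, MCL1, MYC, TRIB1, FOSL1, EGR3, ZFP36L2, DUSP5, IER3 and DUSP4. The ratio of observed to expected CpG had a median of 0.820 in the members' windows and 0.579 in all 35116 windows. A CArG box, searched on both strands, was in the windows of EGR1, EGR2 and SRF and in 1.29% of all windows. TGACGTCA, the full cAMP response element, was in those of DUSP1, JUND and ZFP36L1 and in 1.85% of all windows. TGANTCA, the AP-1 motif, was in that of FOSL2 and in 7.71% of all windows. TATAAA was in those of ATF3, CCN2, DUSP1, FOS, FOSB, JUNB and SRF and in 11.5% of all windows.

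The 250 bases before the start are shown for 4 members that are among those with the widest movements in wild-type cells or with the highest levels: EGR1 (chr5:138465229-138465478, plus strand), FOSB (chr19:45467746-45467995, plus strand), ZFP36 (chr19:39406597-39406846, plus strand) and CCN2 (chr6:131951373-131951622, minus strand). Capitals mark the CArG boxes in EGR1 and TATAAA in FOSB and CCN2, and ZFP36 held none of the 4 motifs.
EGR1: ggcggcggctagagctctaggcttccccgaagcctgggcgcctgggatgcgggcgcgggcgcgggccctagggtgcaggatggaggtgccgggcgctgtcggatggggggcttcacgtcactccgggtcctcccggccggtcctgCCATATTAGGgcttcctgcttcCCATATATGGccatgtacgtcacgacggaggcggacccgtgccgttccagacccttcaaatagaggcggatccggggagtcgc
FOSB: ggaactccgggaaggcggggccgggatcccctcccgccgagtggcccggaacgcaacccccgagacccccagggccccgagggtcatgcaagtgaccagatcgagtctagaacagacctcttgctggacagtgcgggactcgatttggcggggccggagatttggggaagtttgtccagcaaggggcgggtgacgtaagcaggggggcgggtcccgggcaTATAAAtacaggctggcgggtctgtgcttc
ZFP36: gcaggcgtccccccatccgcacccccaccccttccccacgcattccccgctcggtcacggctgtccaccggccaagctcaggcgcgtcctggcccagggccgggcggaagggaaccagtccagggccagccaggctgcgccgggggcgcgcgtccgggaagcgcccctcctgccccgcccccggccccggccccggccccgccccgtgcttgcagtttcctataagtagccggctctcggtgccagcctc
CCN2: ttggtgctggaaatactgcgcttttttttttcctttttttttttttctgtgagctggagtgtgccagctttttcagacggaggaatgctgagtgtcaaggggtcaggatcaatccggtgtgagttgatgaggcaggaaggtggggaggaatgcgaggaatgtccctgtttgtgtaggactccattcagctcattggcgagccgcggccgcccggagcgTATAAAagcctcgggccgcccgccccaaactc

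Depth differed between experiments. Reads assigned to genes numbered 16173008 to 21228534 per library in the wild-type and speckle libraries and 4243092 to 9407430 in the 12 HT-CTCF libraries, so small changes were less detectable in the latter. The erythroid marker list had a summed level of 533 to 650 CPM in K562 libraries and 9.20 to 14.4 CPM in HCT116 libraries. Its gene HBE1 was below 1 CPM in every K562 group. A colon epithelial list summed to 3043 to 4453 CPM in HCT116 libraries and 481 to 1060 CPM in K562 libraries. Its genes CDX1 and VIL1 were below 1 CPM in every HCT116 group. Levels below are CPM, gene counts scaled to a common library size with TMM factors over the 30 libraries, and differences are log2 fold changes with their SE and an adjusted p from edgeR's quasi-likelihood test (Benjamini-Hochberg over all genes tested), called below 0.05. Exons of 13 members overlap those of another annotated gene, on the other strand in 11 of them, and whether reads were counted by strand is not stated. Whether reads of JUNB, EGR3, IER2, IER3, MYC, KLF4, NR4A1, DUSP6, ZFP36L2, CCN2 and MCL1 were separated from antisense ones is therefore not known. EGR2, ZFP36L1 and MCL1 overlap another gene on the same strand, which strand would not separate.

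Wild-type HCT116 cells expressed all 35 members at 1 CPM or more in DMSO, with a median of 178 CPM over the members. Wild-type K562 cells expressed 26 at that level, with a median of 14.3 CPM. On the per-length scale, IER3 led in HCT116 DMSO at 767 ± 59.4 CPM per kb (SD, n = 3), followed by EGR1 at 372 ± 25.9 and FOS at 237 ± 26.0. JUND led in K562 DMSO at 90.0 ± 19.1 CPM per kb, with MYC at 83.4 ± 1.70, a difference smaller than the spread of JUND. MCL1 and JUN followed at 42.5 ± 7.09 and 39.1 ± 18.7 CPM per kb, which also overlapped.

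**Figure D1:**
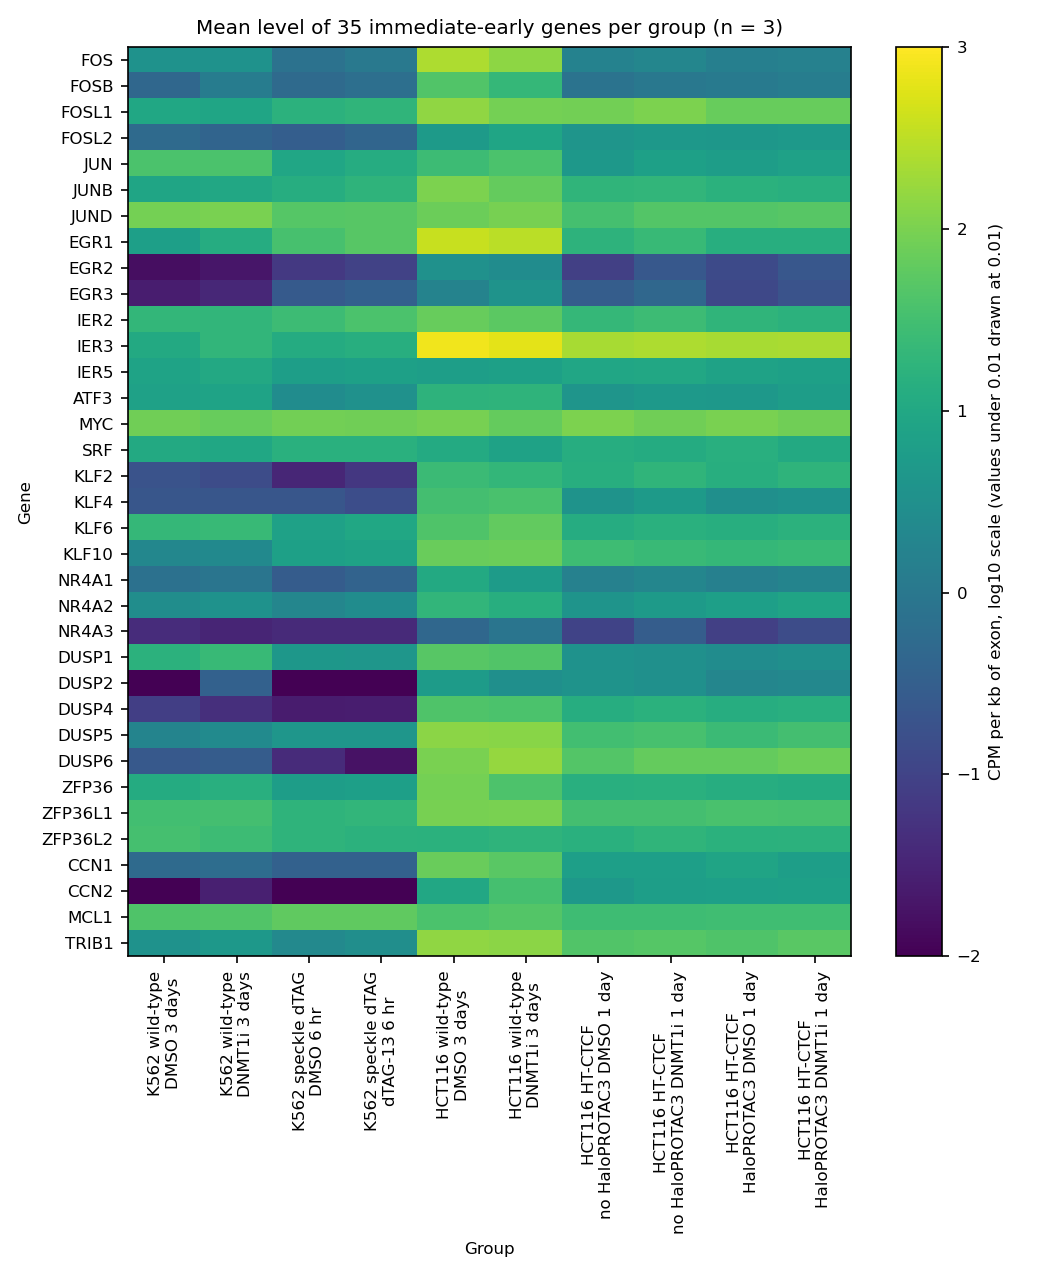
Group means (n = 3) of the 35 genes as CPM per kb of exon on a log10 colour scale, one row per gene and one column per group. Both wild-type HCT116 columns are brightest for IER3 and then EGR1, and the wild-type K562 DMSO column is darkest for CCN2, DUSP2 and EGR2.

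The wild-type lines were compared between their DMSO groups, in which line and culture conditions cannot be told apart. In the other DMSO groups the median over the members was 37.7 CPM in HT-CTCF HCT116 cells without HaloPROTAC3. It was 10.9 CPM in the K562 speckle line. Of 35 members, 29 were lower and 1 was higher in K562, while 76.5% of 17237 genes differed, 39.6% being lower and 36.9% higher in K562. The members' median difference was -4.04 on the log2 scale, against -0.02 over all genes. EGR2, EGR3, KLF2, NR4A3, DUSP2, DUSP4 and CCN2 are among the 29 and count in this median. They were too low to test within K562 and passed the filter through HCT116. Their direction was therefore fixed by the filter and adds no support. EGR1, a zinc finger factor that is induced by ERK signalling, stood at 20.8 ± 6.54 CPM in K562 and 1168 ± 81.2 CPM in HCT116. FOS, the founding AP-1 subunit, stood at 11.1 ± 4.19 against 757 ± 82.8 CPM. DUSP6, a cytoplasmic phosphatase for ERK, stood at 0.956 ± 0.128 against 383 ± 22.4 CPM. ZFP36L2 was the member higher in K562, at 122 ± 9.51 against 57.8 ± 1.56 CPM (log2 difference 0.98 ± 0.09 (SE), adjusted p = 5.99e-09 by edgeR's quasi-likelihood test). JUN, JUND, IER5, SRF and MCL1 were not called. CCN2, which encodes a secreted matricellular protein, had 1 count over the 3 K562 DMSO libraries and 1183 over the HCT116 ones, a ratio of 1201 with a 95% exact counting interval from 215 to 47481. DUSP2, a nuclear MAP kinase phosphatase, had 1 count against 538, a ratio of 546 with an interval from 97.6 to 21615. These intervals cover counting error only.

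Members also stood at different levels in the 2 HCT116 experiments. Wild-type HCT116 DMSO cells (3 days) and HT-CTCF DMSO cells (1 day, no HaloPROTAC3) differ in knock-in, time and experiment, which cannot be told apart, and no test was made. The 3 wild-type libraries lay above the 3 HT-CTCF libraries for 31 of 35 members, against 38.3% of 13725 genes with a mean of 1 CPM or more in either group, and below them for IER5, MYC and SRF, against 25.6% of those genes. FOS stood at 757 ± 82.8 against 5.32 ± 0.733 CPM, a ratio of 142, and FOSB, its close relative, at 247 ± 40.5 against 4.53 ± 1.44 CPM, a ratio of 54.5. EGR2 (ratio 38.0), EGR1 (22.1), DUSP1, which removes phosphate from p38, JNK and ERK (14.1), and CCN1, the relative of CCN2 (10.4), were the other members above a ratio of 10. The median ratio over the members was 3.48. MYC, a growth-regulating factor, stood at 424 ± 11.5 against 471 ± 12.8 CPM.

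The K562 speckle line in DMSO (6 hours) likewise differed from wild-type K562 in DMSO (3 days), with members on both sides. Among 27 members with a mean of 1 CPM or more in either group, 9 were higher in the 3 speckle-line libraries without overlap and 15 were lower, against 33.4% and 36.3% of 13152 genes. EGR1 stood at 112 ± 9.83 CPM in the speckle line and 20.8 ± 6.54 CPM in wild-type cells. JUN stood at 32.5 ± 5.44 against 142 ± 67.9 CPM and FOS at 2.46 ± 0.849 against 11.1 ± 4.19 CPM.

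DNMT1i for 3 days moved the members in both directions in wild-type HCT116 cells. Of 35 members tested, 28 were called, 11 higher and 17 lower, while 61.6% of 15885 genes were called, 33.8% being higher and 27.9% lower. The members' median log2 fold change was -0.18, against 0.02 for all genes. Members of the same family moved apart: FOS, FOSB and FOSL1 fell while FOSL2 rose, JUNB fell while JUN and JUND rose, EGR1 fell while EGR3 rose, NR4A1 and NR4A2 fell while NR4A3 rose, and CCN1 fell while CCN2 rose. Scaling by library size alone moved the median of all genes from 0.02 to 0.13 and changed the split of called members to 13 higher and 11 lower. DUSP1, EGR1, KLF2, IER3, IER2 and TRIB1 were not called under that scaling.

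CCN2 rose furthest. Its libraries stood at 28.3, 22.9 and 19.1 CPM in DMSO and 77.7, 78.1 and 79.6 CPM in DNMT1i, without overlap, a log2 fold change of 1.76 ± 0.11 (SE, adjusted p = 2.06e-11 by edgeR's quasi-likelihood test). The fibroblast marker list, of 6 genes, summed to 9.65 to 12.3 CPM in DMSO and 23.3 to 31.3 CPM in DNMT1i; COL1A1 was its sole gene with a mean of 1 CPM or more in either group, and its part in the CCN2 result was not tested. EGR3, a close relative of EGR1, had 10.3, 8.95 and 7.33 CPM in DMSO and 18.9, 18.8 and 19.3 CPM in DNMT1i, each DNMT1i library lying above each DMSO library (1.12 ± 0.12, adjusted p = 1.06e-07 by edgeR). FOSL2, an AP-1 subunit that persists longer than FOS, had 32.7, 39.0 and 41.2 CPM against 58.8, 64.1 and 67.3 CPM (0.77 ± 0.09, adjusted p = 5.20e-07 by edgeR). DUSP6 rose from 383 ± 22.4 to 635 ± 16.9 CPM (0.75 ± 0.07, adjusted p = 3.43e-08 by edgeR). NR4A3, an orphan nuclear receptor, rose from a low level, with 4.21, 2.34 and 2.27 CPM in DMSO and 5.90, 5.47 and 5.36 CPM in DNMT1i (0.94 ± 0.20).

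Among members that fell, ZFP36, which encodes the mRNA decay factor tristetraprolin, had the widest change. Its libraries stood at 148, 202 and 186 CPM in DMSO and 66.9, 93.3 and 76.5 CPM in DNMT1i (-1.16 ± 0.11 on the log2 scale, adjusted p = 2.48e-08 by edgeR). FOSB had 226, 293 and 221 CPM in DMSO and 125, 116 and 117 CPM in DNMT1i (-1.04 ± 0.09, adjusted p = 1.03e-08 by edgeR). NR4A1 had 82.9, 79.3 and 79.8 CPM against 38.7, 47.4 and 36.2 CPM (-0.97 ± 0.09). For these members the groups did not overlap. DUSP2 had 10.6, 11.7 and 9.54 CPM against 5.72, 5.97 and 5.88 CPM (-0.84 ± 0.13, adjusted p = 9.89e-06 by edgeR). FOS fell from 757 ± 82.8 to 460 ± 21.4 CPM (-0.70 ± 0.08), JUNB from 191 ± 15.8 to 120 ± 24.5 CPM and SRF, the factor that binds CArG boxes, from 48.3 ± 1.07 to 32.2 ± 2.89 CPM (-0.57 ± 0.09). MYC fell from 424 ± 11.5 to 299.5 ± 6.70 CPM (-0.49 ± 0.07, adjusted p = 5.31e-06 by edgeR). EGR1 fell by less, from 1168 ± 81.2 to 967 ± 99.5 CPM (-0.26 ± 0.08, adjusted p = 0.0113 by edgeR). KLF6, JUN, JUND, MCL1, ZFP36L2 and KLF4 were the other members called higher, by 0.61 down to 0.20 on the log2 scale. FOSL1, NR4A2, CCN1, IER2, IER3, KLF2, DUSP1 and TRIB1 were the others called lower, by -0.69 to -0.18. EGR2, IER5, ATF3, KLF10, DUSP4, DUSP5 and ZFP36L1 were not called. Of the 28 calls, 19 held at an adjusted p below 0.05 under each other scaling, filter, tool, block and left-out library, and DUSP1, EGR1, KLF2, KLF4, IER3, MCL1, ZFP36L2, IER2 and TRIB1 were lost under at least one of them. A further limit of 0.5 on the log2 fold change, tried separately, left 16 calls, so that MYC, JUND and CCN1 were among those lost to it.

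**Figure D2:**
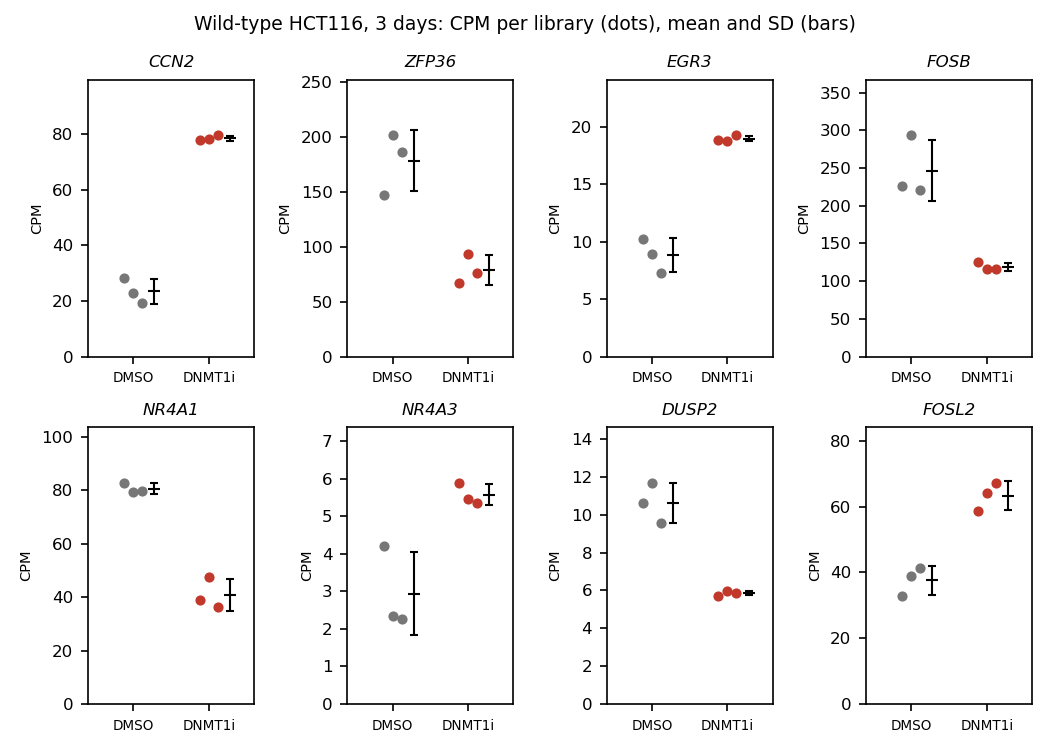
CPM in each wild-type HCT116 library (dots, y axis from 0) with the mean and SD (bars, n = 3) for the 8 called genes with the largest log2 fold change. The DMSO and DNMT1i libraries do not overlap for any of the 8 genes.

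Wild-type K562 cells gave fewer calls to the same treatment. FOSB and IER3, which encodes a stress-inducible survival protein, rose, and no member was called lower, so that 2 of 28 members tested were called, while 8.84% of 13726 genes were called, 6.47% being higher and 2.38% lower. FOSB had 2.46, 3.07 and 2.27 CPM in DMSO and 6.35, 7.89 and 6.47 CPM in DNMT1i (1.41 ± 0.18, adjusted p = 0.000456 by edgeR). IER3 had 12.7, 14.4 and 16.8 CPM in DMSO and 25.4, 28.1 and 24.9 CPM in DNMT1i (0.84 ± 0.13, adjusted p = 0.00171 by edgeR). The groups did not overlap for FOSB or IER3, and both calls held under each of 11 alternatives.

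EGR1 differed by more than IER3 but also varied more, with 28.3, 18.4 and 15.9 CPM in DMSO and 51.2, 45.0 and 20.1 CPM in DNMT1i (0.90 ± 0.31, adjusted p = 0.112 by edgeR), and the groups overlapped. MYC stood at 382 ± 7.79 CPM in DMSO and 321 ± 26.4 CPM in DNMT1i (-0.25 ± 0.08, adjusted p = 0.109 by edgeR). JUN, an AP-1 subunit that is a substrate of JNK, had 88.5, 118 and 218 CPM in DMSO and 75.2, 134 and 203 CPM in DNMT1i, so the library numbered 3 was highest in each group. Among the DMSO libraries, replicate 3 lay apart from the others over the genes as a whole. The chi-square per degree of freedom was 31.4 against replicate 1 and 29.7 against replicate 2, but 2.48 between replicates 1 and 2. The number of calls depended on this library. Without DMSO replicate 3, 8 members were called, 6 higher and 2 lower, and without DMSO replicate 1, 4 were called. The members' median log2 fold change was 0.17, against -0.00 for all genes. EGR2, EGR3, KLF2, NR4A3, DUSP2, DUSP4 and CCN2 were too low to test. DUSP2 had 1 count over the DMSO libraries and 35 over the DNMT1i libraries, a ratio of 34.0 with a 95% exact counting interval from 5.72 to 1382.

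The response to DNMT1i differed between the lines for 16 members by the line by treatment term, 14 with a higher log2 fold change in K562 and 2 with a lower one, while 29.8% of 17237 genes passed, 14.1% being higher and 15.7% lower. DUSP2 is among the 14, but it was too low to test within K562 and passed the filter through HCT116. With 1 count over the K562 DMSO libraries, its fitted value depends on the prior count. FOSB differed by 2.46 ± 0.21 (adjusted p = 2.77e-08 by edgeR), having risen in K562 and fallen in HCT116. IER3 did likewise, with a difference of 1.14 ± 0.15 (adjusted p = 1.28e-05 by edgeR). ZFP36 differed by 1.45 ± 0.21 and NR4A1 by 1.27 ± 0.17, having fallen in HCT116 and not been called in K562. FOSL2 and ZFP36L2, which rose in HCT116, differed by -1.14 ± 0.19 and -0.52 ± 0.13. EGR1 differed by 1.16 ± 0.32 (adjusted p = 0.00943 by edgeR). MYC did not pass (0.25 ± 0.11, adjusted p = 0.0889 by edgeR).

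**Figure D3:**
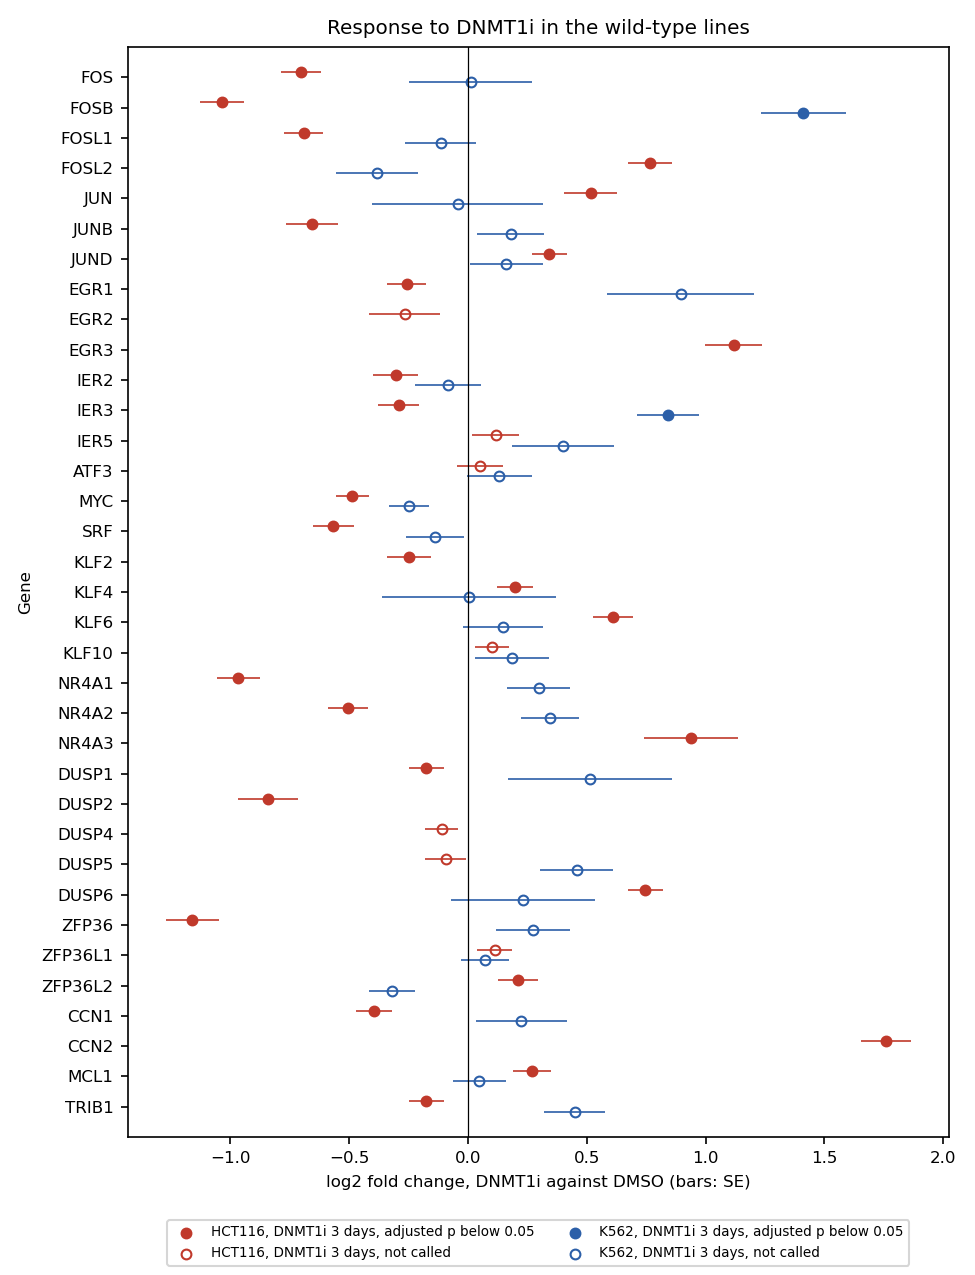
Log2 fold change of DNMT1i against DMSO (x axis, bars SE) for each of the 35 genes in wild-type HCT116 (red) and K562 (blue), with filled points for an adjusted p below 0.05. FOSB and IER3 lie right of 0 in K562 and left of 0 in HCT116.

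In HT-CTCF cells with CTCF present, 1 day of DNMT1i gave 6 calls among 33 members tested, 5 higher and 1 lower, while 2.48% of 12690 genes were called, 1.98% being higher and 0.504% lower. The members' median log2 fold change was 0.24, against -0.00 for all genes, and 27 of 33 lay above 0. DUSP6 had 169, 181 and 174 CPM in DMSO and 262, 254 and 237 CPM in DNMT1i (0.53 ± 0.07, adjusted p = 6.66e-06 by edgeR), without overlap. JUN rose from 16.9 ± 2.67 to 25.7 ± 3.88 CPM, also without overlap (0.64 ± 0.14, adjusted p = 0.00834 by edgeR), and EGR1 had 45.0, 52.0 and 61.2 CPM against 72.3, 73.3 and 72.5 CPM (0.47 ± 0.11, adjusted p = 0.0112 by edgeR). JUND, the AP-1 subunit that is present in resting cells, and KLF2, a zinc finger factor, rose by 0.43 ± 0.09 and 0.43 ± 0.12. MYC fell, with 457, 482 and 475 CPM in DMSO and 409, 374 and 362 CPM in DNMT1i (-0.29 ± 0.07, adjusted p = 0.0134 by edgeR). FOSB, at 4.53 ± 1.44 and 5.70 ± 1.15 CPM, was not called (0.34 ± 0.26, adjusted p = 0.553 by edgeR). DUSP6 was the call that held under each alternative: without DNMT1i replicate 1 or replicate 2 the count was 3, and without DMSO replicate 2 it was 2.

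With HaloPROTAC3, 1 day of DNMT1i gave 7 calls among 33, 6 higher and 1 lower, while 5.41% of 12690 genes were called, 2.86% being higher and 2.55% lower. TRIB1, a pseudokinase that scaffolds ubiquitin ligation, rose from 175 ± 2.92 to 213 ± 3.38 CPM (0.32 ± 0.07, adjusted p = 0.00344 by edgeR). DUSP6 rose from 251 ± 8.78 to 298 ± 10.3 CPM (0.29 ± 0.07, adjusted p = 0.00925 by edgeR) and KLF2 from 37.9 ± 4.61 to 50.8 ± 7.40 CPM (0.47 ± 0.11). DUSP5, a nuclear phosphatase for ERK, rose by 0.37 ± 0.09, KLF6 by 0.32 ± 0.08 and the stress-induced factor ATF3 by 0.40 ± 0.12. MYC fell by 0.22 on the log2 scale (SE 0.07, adjusted p = 0.0470 by edgeR). EGR1 was not called, at 42.7 ± 3.64 and 42.4 ± 7.06 CPM (adjusted p = 0.930 by edgeR), nor was FOSB, at 6.39 ± 1.20 and 7.15 ± 1.07 CPM. Without the DNMT1i library replicate 2 or replicate 3 the count was 4, and without the DMSO library replicate 3 it was 2. TRIB1 was the call that held at an adjusted p below 0.05 under each other scaling, filter, tool, block and left-out library, and 0 calls passed a further limit of 0.5 on the log2 fold change. Library size scaling gave 5 higher and 3 lower.

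Adding HaloPROTAC3 in DMSO gave 9 calls among 33 members, 4 higher and 5 lower, while 17.3% of 12690 genes were called, 10.1% being higher and 7.28% lower. NR4A2, an orphan nuclear receptor, had 16.6, 15.9 and 13.7 CPM without HaloPROTAC3 and 30.1, 24.3 and 23.4 CPM with it (0.72 ± 0.13, adjusted p = 0.000208 by edgeR). DUSP6 rose from 175 ± 6.19 to 251 ± 8.78 CPM (0.49 ± 0.07, adjusted p = 3.20e-06 by edgeR), and JUND and CCN2 also rose. KLF10, a TGF-β-inducible repressor, had 115, 114 and 91.9 CPM without and 80.4, 80.8 and 85.7 CPM with HaloPROTAC3 (-0.42 ± 0.08, adjusted p = 0.000335 by edgeR), and FOSL1 fell from 166 ± 9.30 to 129 ± 14.6 CPM (-0.40 ± 0.09). DUSP2 (-0.92 ± 0.23), EGR1 (-0.34 ± 0.11) and DUSP5 (-0.31 ± 0.09) also fell. FOSB (0.50 ± 0.24, adjusted p = 0.160 by edgeR) and MYC (-0.08 ± 0.07, adjusted p = 0.475 by edgeR) were not called. Library size scaling moved the split to 3 higher and 7 lower. Of the 9 calls, JUND, DUSP6, NR4A2, KLF10, DUSP2 and FOSL1 held under each other scaling, filter, tool, block and left-out library. CCN2, EGR1 and DUSP5 were lost under at least one of them, and DESeq2 did not call CCN2 or EGR1.

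Adding HaloPROTAC3 under DNMT1i gave 11 calls among 33, 2 higher and 9 lower, while 22.4% of 12690 genes were called, 12.2% being higher and 10.1% lower. EGR1 had 72.3, 73.3 and 72.5 CPM without HaloPROTAC3 and 50.5, 37.5 and 39.2 CPM with it (-0.78 ± 0.11, adjusted p = 2.36e-06 by edgeR). IER2, a nuclear immediate-early protein, had 88.5, 80.7 and 72.8 CPM against 48.7, 52.2 and 53.1 CPM (-0.66 ± 0.11, adjusted p = 4.92e-05 by edgeR). The groups did not overlap for EGR1 or IER2. FOSL1 fell from 195 ± 16.0 to 131 ± 12.4 CPM (-0.57 ± 0.09), and IER5, a regulator of heat shock factor, fell from 42.4 ± 1.72 to 28.6 ± 3.64 CPM (-0.57 ± 0.12). KLF4, JUNB, ZFP36, DUSP2 and EGR3 fell as well. NR4A2 rose again (0.65 ± 0.13, adjusted p = 0.000321 by edgeR), as did DUSP6 (0.24 ± 0.07, adjusted p = 0.00930 by edgeR). MYC stood at 382 ± 24.4 CPM without and 380.5 ± 18.8 CPM with HaloPROTAC3, and FOSB at 5.70 ± 1.15 and 7.15 ± 1.07 CPM, neither being called. Library size scaling moved the median of all genes from -0.00 to -0.10, with 1 member higher and 13 lower, DUSP6 then being not called. Without the HaloPROTAC3 DNMT1i library replicate 3, 7 members were called. Of the 11 calls, EGR1, NR4A2, IER2, IER5 and FOSL1 held under each other scaling, filter, tool, block and left-out library. ZFP36, KLF4, DUSP6, DUSP2, JUNB and EGR3 were lost under at least one of them, and DESeq2 did not call ZFP36, DUSP2 or EGR3. EGR3 had few reads, with 11, 20 and 10 without HaloPROTAC3 and 4, 6 and 7 with it.

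These contrasts share groups, so their values stand side by side and are not independent. The test of the difference between them, the interaction, called 0 of 33 members by edgeR, 4 having an unadjusted p under 0.05, and 0 by DESeq2, while 0.268% of 12690 genes passed. For EGR1 the interaction was -0.45 ± 0.15 (adjusted p = 0.182 by edgeR), so the call of EGR1 with CTCF present and not with CTCF degraded was not shown to be a difference with all 12 libraries. Without the DMSO library replicate 3 that received no HaloPROTAC3, 3 members passed, EGR1 among them (-0.57, adjusted p = 0.0464 by edgeR), while under the other alternatives that gave an adjusted p it was not called, with a highest value of 0.377.

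**Figure D4:**
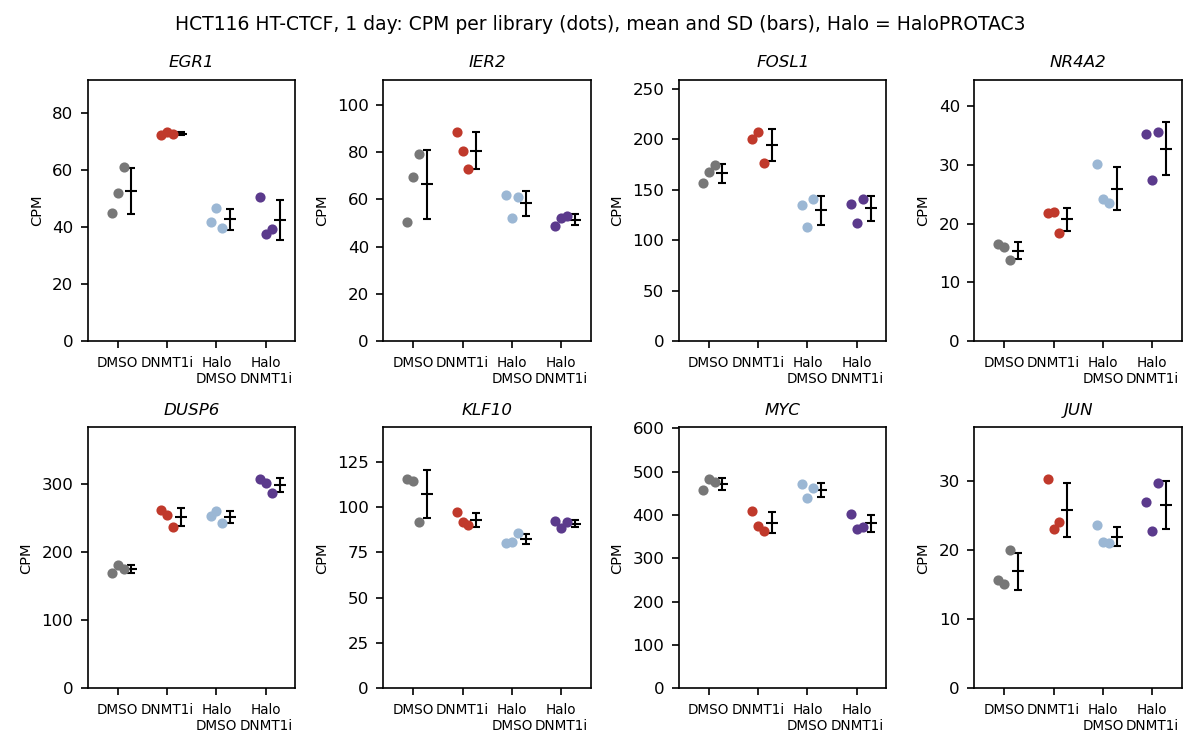
CPM in each HT-CTCF library (dots, y axis from 0) with the mean and SD (bars, n = 3) for 8 genes in 4 groups. EGR1 and IER2 are lower with HaloPROTAC3 under DNMT1i, and NR4A2 is higher with HaloPROTAC3 in both treatments.

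With dTAG-13 for 6 hours, a small set of members was higher in the K562 speckle line. No untagged cells received dTAG-13 here, so the compound and the loss of SON and SRRM2 cannot be told apart. IER2, EGR1 and KLF6 rose among 28 tested, and no member was called lower, while 4.67% of 14104 genes were called, 1.57% being higher and 3.09% lower. The labels do not state a pairing of these libraries. It was taken from the data, where same-numbered deviations correlated at 0.18, 0.46 and 0.76. With replicate number as a block, 9 members were higher and 0 lower, against 8.33% and 13.4% of genes. The median log2 fold change of the members was 0.19, against -0.01 over all genes. EGR1 had 119, 101 and 117 CPM in DMSO and 150, 153 and 172 CPM with dTAG-13 (0.47 ± 0.08, adjusted p = 0.0125 by edgeR). IER2 had 77.7, 76.1 and 91.0 CPM against 103, 113 and 140 CPM (0.51 ± 0.12, adjusted p = 0.0360 by edgeR). KLF6, a zinc finger factor, had 48.1, 43.3 and 43.9 CPM against 59.3, 59.1 and 59.2 CPM (0.36 ± 0.07, adjusted p = 0.0181 by edgeR). The groups did not overlap for these members.

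JUN, JUNB, NR4A2, TRIB1, ATF3 and FOSL1 were called only with the block. JUN stood at 32.5 ± 5.44 CPM in DMSO and 44.9 ± 8.75 CPM with dTAG-13, the groups overlapping. It was higher in 3 of 3 same-numbered pairs (blocked 0.44 ± 0.07). NR4A2 rose from 7.84 ± 0.814 to 10.6 ± 0.553 CPM (blocked 0.42 ± 0.11, adjusted p = 0.00529 by edgeR). MYC (-0.08 ± 0.06, adjusted p = 0.528 by edgeR) and FOSB (0.29 ± 0.15, adjusted p = 0.330 by edgeR) were called in neither fit. The calls without the block rested on single libraries: without dTAG-13 replicate 2, 0 members were called, and without DMSO replicate 1 or replicate 2, 1 was called. The heat shock list, a sign of general stress, had 0 of 8 called without the block by edgeR, 1 having an unadjusted p under 0.05, and 1 of 8, HSPE1, lower with it. All 8 had a log2 fold change below 0, and their summed level was 12627 to 12970 CPM in DMSO and 11835 to 12525 CPM with dTAG-13, without overlap; its part in the member changes was not tested.

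**Figure D5:**
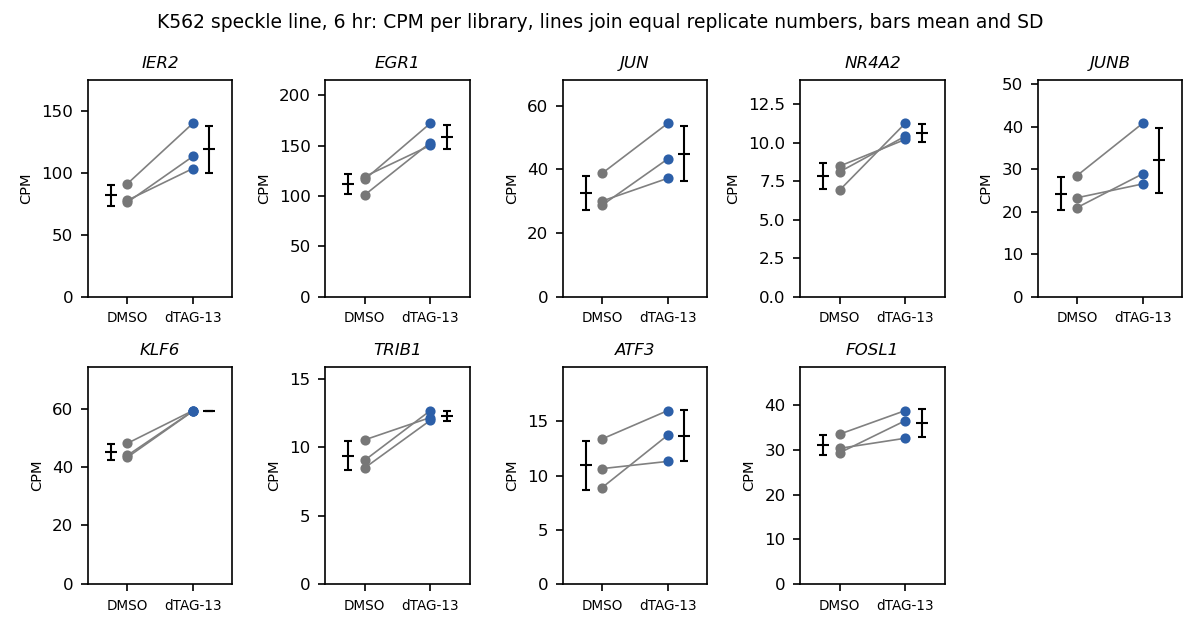
CPM in each speckle-line library (dots, y axis from 0), grey lines joining libraries of the same replicate number, with the mean and SD (bars, n = 3) for the 9 genes called with the replicate block. Each of the grey lines rises from DMSO to dTAG-13.

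Use of exon bins, the disjoint pieces into which the authors' counting divided each gene, was compared within genes. Bins of members with enough reads numbered 169 in K562, 314 in HCT116 and 156 in the speckle line. With DNMT1i, 0 member bins were called in K562 by edgeR, against 0.0492% of 186972 bins, and 4 in HCT116, or 1.27%, against 0.846% of 201926 bins. All 4 lie towards the 3′ end of their gene and had a larger share of reads in DNMT1i. In each of them replicate 2 had the lowest share among the DNMT1i libraries. The part of coverage along the transcript in these calls was not tested. In FOS the last bin (chr14:75281685-75282230) took 7.50% ± 0.698 of the gene's bin reads in DMSO and 11.2% ± 2.80 in DNMT1i (usage 0.40 on the log2 scale, adjusted p = 0.00250 by edgeR). The FOS groups overlapped, with 8.06% in DNMT1i replicate 2 and 8.27% in DMSO replicate 1. In NR4A2 the last bin (chr2:156324437-156325081, minus strand) took 5.07% ± 0.179 and 8.21% ± 2.23 (0.47, adjusted p = 0.0134 by edgeR). CCN1 (chr1:85583654-85583930, 0.66) and MYC (chr8:127741373-127741434, 1.23) were the others. The MYC bin had 25, 33 and 4 reads in DMSO and 86, 38 and 46 in DNMT1i, so DNMT1i replicate 1 held most of it. Leaving out single libraries gave 2 to 9 called bins, with 2 without DNMT1i replicate 1, DNMT1i replicate 3 or DMSO replicate 3, 8 without DNMT1i replicate 2 and 9 without DMSO replicate 2.

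MCL1 had 5′ bins called in the speckle line with the block. It encodes an anti-apoptotic BCL2 relative, and its mRNA gives a shorter form when exon 2 is skipped. Its bins between chr1:150578964-150579031 and chr1:150579550-150579594, on the minus strand, had 5 calls with blocked usage of 0.31 to 0.66, among 6 member bins called, against 0.724% of 184300 bins. Without the block 0 were called by edgeR, against 0.132%. The bin chr1:150578964-150579031 took 2.59% ± 0.745 of reads in DMSO and 3.60% ± 0.633 with dTAG-13 (blocked adjusted p = 0.0110 by edgeR). Its groups overlapped, and replicate 3 was highest in each. The 2350-base bin nearer the 3′ end (chr1:150574720-150577069) was lowest in replicate 3 of each group, at 43.4% in DMSO and 36.7% with dTAG-13. The part of coverage along the transcript in these calls was not tested. The exon 2 bin (chr1:150578244-150578491) took 9.28% ± 1.62 and 10.5% ± 1.33 and was not called (blocked adjusted p = 0.502 by edgeR). The other called bin was in JUN (chr1:58780791-58781562, blocked usage -0.45). No FOSB bin was called in any of the 3 comparisons, and in HCT116 the 140-base bin whose removal gives the truncated ΔFOSB form (chr19:45472707-45472846) took 7.24% ± 0.141 of reads in DMSO and 6.55% ± 0.453 in DNMT1i.

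Genes upstream of and beside the members were counted in 4 lists. Of 26 genes of the MAP kinase and SRF input, 11 were higher and 2 lower with DNMT1i in HCT116, so that 13 of 26 were called against 61.6% of all genes, with a median log2 fold change of 0.14. EGFR, the growth factor receptor upstream of RAS, rose by 1.49 ± 0.07. In K562 2 were higher and 1 lower of 26, while 8.84% of all genes were called there, led by RPS6KA2, an ERK-activated kinase (1.65 ± 0.18). Of 12 genes of the ERK pathway output, 6 were higher and 3 lower in HCT116, or 75.0% against the same 61.6%. EPHA2, a receptor tyrosine kinase, rose by 1.03 ± 0.08, and the ETS factor ETV1 fell by 1.18 on the log2 scale. In K562 3 of those 12 were higher, EPHA2 (1.93 ± 0.33), SPRY1 and PHLDA1, and 0 lower. Of 24 other early response genes, 13 were higher and 6 lower in HCT116, or 79.2% against 61.6% of all genes, among them the chemokine CXCL8 (2.91 ± 0.16), the neuronal gene ARC (1.97 ± 0.12) and NFKBIA, the inhibitor of NF-κB (1.04 ± 0.08). In K562 PLK2 (2.75 ± 0.36), RHOB (1.68 ± 0.17) and ID1 rose, of 22 tested. ARC also rose in HT-CTCF cells at 1 day, by 1.15 ± 0.17 without HaloPROTAC3 and 0.76 ± 0.16 with it.

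Of 8 heat shock genes, 5 were higher and 2 lower with DNMT1i in HCT116, or 87.5% against 61.6% of all genes, and 0 were called in K562 by edgeR, where 2 had an unadjusted p under 0.05. HSPA1A and HSPA1B, which share nearly all of their sequence so that reads may be split between them, had 5.45 ± 0.18 and 0.75 ± 0.09 in HCT116. The summed level of the 8 genes was 6009 to 6584 CPM in HCT116 DMSO and 7933 to 8325 CPM in DNMT1i, without overlap, and its part in the member changes was not tested.

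The same lists were counted in the other comparisons. In the speckle line RPS6KA1, an ERK-activated kinase, fell by 0.50 on the log2 scale, the 1 call among 25 MAP kinase and SRF genes, and with the block 1 was higher and 6 lower. BHLHE40, TNFAIP3 and BTG2 rose among 21 other early response genes, by 0.39 to 0.40, and with the block 7 were higher and 0 lower. Of 9 ERK output genes SPRY4, a feedback inhibitor, rose by 0.32 and CCND1, cyclin D1, fell by 0.43 on the log2 scale, and with the block SPRY4, PHLDA1 and ETV1 were higher and CCND1 lower. These blocked counts stand beside 8.33% of all genes higher and 13.4% lower, and those without the block beside 1.57% higher and 3.09% lower. With DNMT1i in HT-CTCF cells, 3 or fewer genes were called in each direction over the 4 lists, with or without HaloPROTAC3. Few genes were called at all there, 2.48% of 12690 without HaloPROTAC3 and 5.41% with it. Adding HaloPROTAC3 in DMSO, where 17.3% of all genes were called, gave 1 higher and 2 lower of 26 MAP kinase and SRF genes, 2 lower of 12 ERK output genes, 3 lower of 22 other early response genes and 3 lower of 8 heat shock genes. Adding it under DNMT1i, where 22.4% were called, gave 3 higher and 4 lower, 2 and 2, 1 and 5, and 1 and 1 in the same order. In HT-CTCF cells EGFR rose with DNMT1i without HaloPROTAC3 (0.39 ± 0.08) and with HaloPROTAC3 in DMSO (0.44 ± 0.08). EPHA2 fell with HaloPROTAC3 in DMSO (-0.38 ± 0.09) and under DNMT1i (-0.41 ± 0.09). MAFF, a small MAF factor, fell with HaloPROTAC3 under DNMT1i (-0.85 ± 0.18).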

How the data were processed

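Gene counts and exon bin counts were the values used; both are raw reads per feature as deposited by the authors, with no normalisation. Per the labels and the study's methods, poly(A) libraries were made with a kit carrying molecular identifiers, trimmed with cutadapt 2.7, aligned to hg38 with STAR 2.6.0 and an Ensembl annotation, deduplicated with UMI-tools 1.1.1 and counted with HTSeq. Deduplication limits the share of PCR copies in the counts; whether counting used strand is not stated. Rows that name no gene held 17.09% to 23.59% of reads per library and were left out. The authors' exon tables also hold fold changes and p-values, which were not used, and 18 columns of per-sample values were not used.

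Each comparison was fitted over all genes passing filterByExpr with edgeR 4.0.16 in R 4.3.3 (TMM scaling, quasi-likelihood F test, Benjamini-Hochberg, called below 0.05), on the 6 libraries of an experiment, all 12 HT-CTCF libraries, or the 12 wild-type libraries for the line terms. Exon bins passing the same filter were tested with diffSpliceDGE, a mean of at least 20 reads being an alternative. The scripts were tested on simulated data. Symbols and exon lengths came from GENCODE 44, with 60463 of 60664 identifiers matched.

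The members and lists were chosen with earlier results of these data known. Named members were those called, up to 10 in each direction by size, with EGR1, FOSB and MYC always, and library values were given for at most 8 per comparison. The labels state no pairing. Replicate numbers were taken to pair the speckle-line libraries, whose same-numbered deviations correlated at 0.18, 0.46 and 0.76 over 9337 genes. Those of replicate 1 also correlated in wild-type K562 (0.48) and wild-type HCT116 (0.30), where replicates 2 and 3 gave negative values. Alternatives were RLE and library size scaling, no filter, DESeq2 1.42.0, a further limit of 0.5 on the log2 fold change, the replicate block, and each library left out. Counts of 16173008 to 21228534 reads per library (4243092 to 9407430 for HT-CTCF) set the precision, and intervals on counts cover counting error only.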

Additional observations from a re-analysis of the deposited data

Results flagged for a closer look

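The response to DNMT1i differed between wild-type K562 and wild-type HCT116 cells for 16 members, by the line by treatment term in edgeR's quasi-likelihood test, adjusted over 17237 genes. The difference in log2 fold change, K562 minus HCT116, was 2.46 for FOSB, 1.45 for ZFP36, 1.27 for NR4A1, 1.16 for EGR1 and 1.14 for IER3. It was 0.86 for NR4A2, 0.84 for JUNB, 0.71 for FOS, 0.63 for TRIB1 and 0.63 for CCN1. FOSL1, DUSP5 and SRF had 0.59, 0.56 and 0.44. FOSL2 and ZFP36L2 had -1.14 and -0.52, with the lower value in K562. DUSP2 had a fitted 5.48, which depends on the prior count because K562 DMSO held 1 count. The calls of SRF, EGR1, DUSP5, CCN1, FOS and FOSL1 were lost under at least one alternative.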

How the results depend on the processing

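Without the low count filter 7 members were called in K562 with DNMT1i and 6 in the speckle line, and DESeq2 called 4 in K562. Requiring a log2 fold change beyond 0.5 as well left 16 in HCT116, 1 in the speckle line, 2 and 0 in HT-CTCF cells with DNMT1i without and with HaloPROTAC3, and 2 for HaloPROTAC3 in DMSO. With the replicate block 9 members and 6 member bins were called in the speckle line, against 21.7% of all genes and 0.724% of all bins. The share of all genes was 4.67% there without the block. For the other alternatives that share is not given, here or above, so their counts do not set the members apart from all genes. In the other experiments the numbers were not taken to pair the libraries. There the block gave 3 calls in K562, 24 in HCT116, 6 and 5 in HT-CTCF cells with DNMT1i without and with HaloPROTAC3, 9 and 10 for HaloPROTAC3 in DMSO and under DNMT1i, and 0 for the interaction. Leaving out single libraries gave 3 to 8 members in K562, 22 to 29 in HCT116, 0 to 4 in the speckle line, 2 to 7 and 2 to 10 in HT-CTCF cells with DNMT1i without and with HaloPROTAC3, 7 to 13 and 7 to 11 for HaloPROTAC3 in DMSO and under DNMT1i, 0 to 3 for the interaction, and 2 to 9 member bins in HCT116. Uncalled values changed sign: EGR1 with DNMT1i in the presence of HaloPROTAC3 was -0.015 with library size alone, -0.010 without the filter and -0.12 to 0.090 with single libraries left out. Leaving out single libraries gave -0.054 to 0.036 for MYC with HaloPROTAC3 under DNMT1i and -0.44 to 0.055 for the FOSB interaction. Causes were not tested, and the lower depth of the HT-CTCF libraries limits small changes there.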
